A study of Homo sapiens with 6 samples.

Results

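The spliceosome assembles on each intron from small nuclear ribonucleoproteins (snRNPs), particles that each carry a small nuclear RNA, and from protein factors that join and leave during the reaction. Sm proteins form a ring on most of these RNAs, and the genes described here code for splicing factors outside that ring. They were every row of the expression table whose symbol starts with SRSF, HNRNP, SF3A, SF3B, PRPF, U2AF, or LSM followed by a digit, without an antisense or pseudogene suffix. That gave 71 genes of 14788 in the table: 12 SRSF, 21 HNRNP, 3 SF3A, 6 SF3B, 13 PRPF, 13 LSM and 3 U2AF genes. The suffixes removed 11 pseudogene rows and 1 antisense row. The rule reads names only and no measured value, but it was set with earlier results of these data known. LSM10, LSM11, LSM12, LSM14A and LSM14B carry a family name without belonging to the rings that bind U6 RNA or start mRNA decay.

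The 6 libraries were made from CAL51, a human cell line of triple-negative breast cancer, in 3 groups of 2. TREX1, the main DNA exonuclease of the cytosol, was targeted by lentiviral CRISPR with a different guide RNA in KO-1 and in KO-2. The sources used here do not say what the control cells carried. Nor do they say whether replicates were cultured apart, so the p-values reflect the spread of these libraries, which may be technical. The deposited description speaks of knockout clones, without saying how many stand behind a group. The level of TREX1 was not analysed here, so the labels were not checked against it.

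The question was whether these factors change with the loss of SNRPD2, an Sm ring protein. SNRPD2 (chromosome 19 from 45687454 to 45692316, GRCh38) stood at 150 and 146 CPM, the read count scaled to the size of the library, in the 2 control libraries, 39.7 and 39.3 in KO-1, and 60.9 and 49.4 in KO-2. The groups do not overlap. For the mean of both guides it fell by 1.67 ± 0.08 on the log2 scale (standard error, SE; limma adjusted p = 1.2e-06). SNRPD2 fell in the same libraries in which TREX1 was targeted, so the 2 differences cannot be told apart. Transcript levels of genes were measured, and splicing itself was not.

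Recovered reads per library came to 13222933 to 25785055, and both control libraries were deeper than every knockout library. KO-2 replicate 1 was the shallowest. With every library thinned to that depth 28 of the 71 genes were again called, 27 of them the same. In KO-2 the replicates differed by over 0.2 (log2) for 18 of the 71 genes, against 4 in KO-1 and 2 in control. Both KO-2 libraries are therefore given for many of the genes below, while others have a fold change only. The markers KRT8 (760 to 973 CPM) and EPCAM (261 to 316 CPM) were present in every library. Of markers of other cells, PTPRC lay at 15.4 to 20.2 CPM, CDH5 at 10.9 to 16.5, PECAM1 at 2.17 to 4.45 and COL3A1 at 230 to 275, and the summed level was 294 to 296 CPM in control, 306 to 309 in KO-1 and 259 to 266 in KO-2. ERBB2 stood at 163 to 199 CPM, and ESR1, PGR, CD3E, CD68 and HBB were not analysed here.

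Transcripts of the PRPF genes, several of which act in the particle that brings U4, U5 and U6 RNA to the intron, rose: 8 of 13 were higher in the knockout libraries and 0 lower, with a median log2 fold change of 0.32. PRPF3 led with a 2.40-fold rise. The SRSF genes, whose proteins bind exons and recruit the spliceosome, split, with 2 of 12 rising and 4 falling. The HNRNP genes, which package nascent RNA and often block splice sites, had 3 of 21 higher and 3 lower. The shares called were 61.5% for PRPF, 50% for SRSF and 28.6% for HNRNP. Over all genes tested the share was 29.6%, so HNRNP lay at the background.

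Over all 71 genes, 19 rose and 9 fell for the mean of both guides, at an adjusted p below 0.05 in limma. That is 39.4% called, where 29.6% of all genes tested were called. The shares by direction were 26.8% higher against a background of 14.6%, and 9 genes lower (background 14.9%). Without the PRPF genes 11 of 58 rose and 9 fell, which is 34.5% called. The background was higher among better expressed genes. At a mean log2 CPM of at least 2, 40.6% of 69 genes described here were called, against 35.3% of all genes. The median of the 71 was 0.07, against -0.01 for all genes. The 28 called genes had a median absolute log2 fold change of 0.27, against 0.36 for all called genes. A change of at least 1.5-fold was called in 2 of the 71, PRPF3 and PRPF18, both higher, where 5.46% of all genes passed that mark (2.80% higher and 2.66% lower). For 39 of the 71 genes no knockout library overlapped the control range, 25 lying higher and 14 lower, where 46.3% of all genes showed no overlap (22.3% higher and 24.0% lower). These 39 held all 28 called genes.

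**Figure D1:**
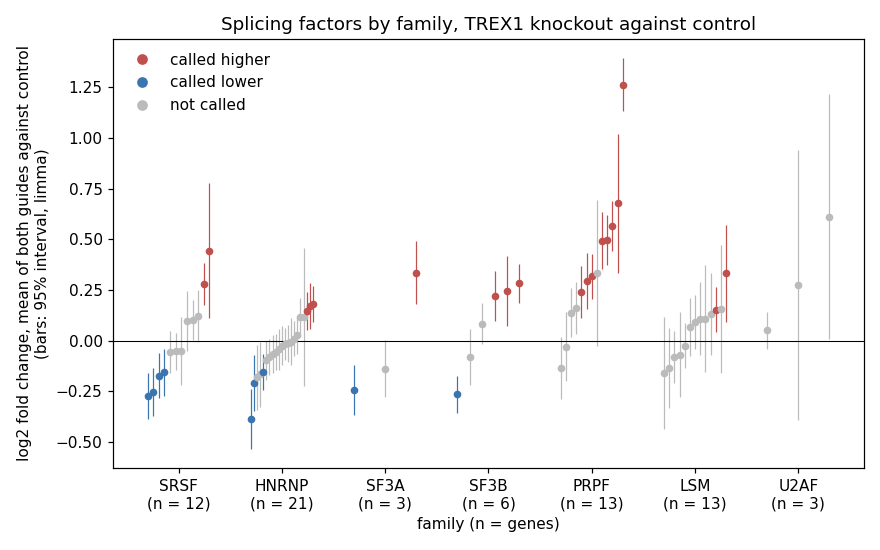
Each point is 1 gene of the 71, placed by family on the x axis, with its log2 fold change for the mean of both guides against control on the y axis and a 95% interval from limma as bar. Red points were called higher, blue lower and grey were not called. The PRPF column holds 8 red points and no blue one, with PRPF3 at the top at 1.26, while the SRSF and HNRNP columns hold both colours.

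Of the 43 genes not called, 40 had a 95% interval that lay within 1.5-fold in either direction. The wide intervals belonged to genes with few reads. Without control replicate 1 the count of called genes dropped to 9 (12.7%), and without control replicate 2 to 11 (15.5%), where 1286 and 1511 of all 13765 genes were called. It was 18 and 16 without KO-1 replicates 1 and 2 (all genes 18.7% and 18.6%), and 40 and 41 without KO-2 replicates 1 and 2 (all genes 42.6% and 44.1%). Each of these fits keeps 1 library in an arm and takes its spread from the other groups. With library medians set equal the split was 24 higher and 5 lower, and all genes then split into 2575 higher and 1598 lower, against 2011 and 2057 as deposited. Under quantile normalization it was 16 higher and 15 lower, with 2038 and 1985 over all genes. With no mean-variance trend 10 were called, which is 14.1% and below the 16.0% of all genes. In 16 alternative settings 8 of the 28 kept their call throughout: PRPF3, PRPF4B, PRPF6, PRPF8, PRPF39, SF3B1, SF3B3 and SRSF4. How many of all called genes did so was not counted, so whether 8 of 28 is unusual cannot be told.

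**Figure D2:**
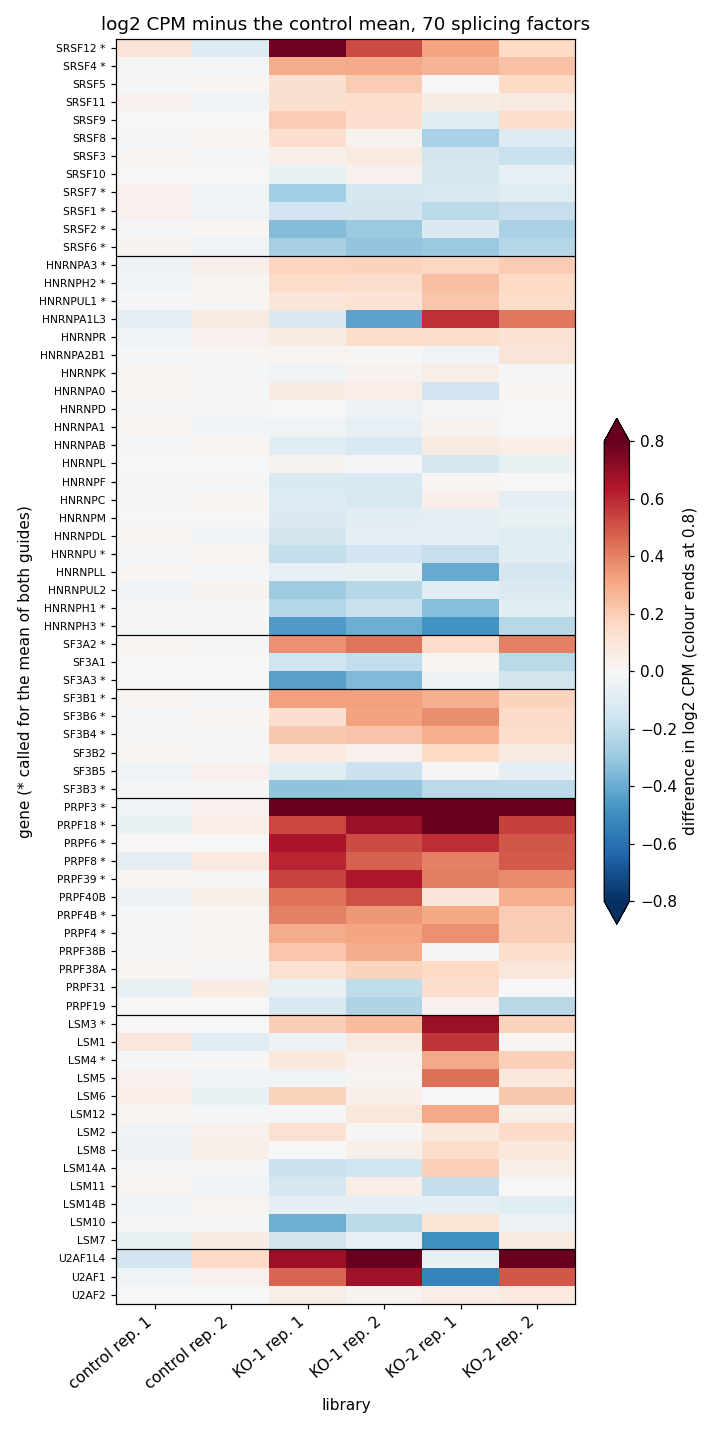
Rows are 70 of the 71 genes by family, columns the 6 libraries, and colour is the difference in log2 CPM from the mean of the 2 control libraries, with the scale ending at 0.8 in each direction. A star marks the called genes. The PRPF block is red in all 4 knockout libraries from PRPF3 down to PRPF4, palest for PRPF40B in KO-2 replicate 1, and LSM1, LSM3, LSM5 and LSM7 have their strongest colour in KO-2 replicate 1.

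To show the regulatory sequence of genes that moved in opposite directions, the 250 bases upstream of the RefSeq start (GRCh38.p14) are printed for 3 genes that rose, PRPF6, PRPF8 and PRPF4, and 2 that fell, HNRNPH3 and SRSF6. Of the 71 genes, 60 matched a RefSeq promoter. Each sequence runs on the gene's strand towards its start, and capitals mark every match, on either strand, to 1 of 5 motifs: the Sp1 box GGGCGG, the CCAAT box CCAAT, an ETS site CCGGAAG, an NRF1 core GCATGCGC and the TATA box TATAAA. No 2 matches overlap in the printed sequences.
PRPF6 (chr20:63980882-63981131, plus strand): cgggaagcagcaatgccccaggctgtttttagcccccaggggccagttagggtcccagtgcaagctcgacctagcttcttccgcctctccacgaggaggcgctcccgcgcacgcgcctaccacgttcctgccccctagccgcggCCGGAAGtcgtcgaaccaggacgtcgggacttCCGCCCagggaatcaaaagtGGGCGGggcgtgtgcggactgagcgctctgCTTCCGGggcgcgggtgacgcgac
PRPF8 (chr17:1684868-1685117, minus strand): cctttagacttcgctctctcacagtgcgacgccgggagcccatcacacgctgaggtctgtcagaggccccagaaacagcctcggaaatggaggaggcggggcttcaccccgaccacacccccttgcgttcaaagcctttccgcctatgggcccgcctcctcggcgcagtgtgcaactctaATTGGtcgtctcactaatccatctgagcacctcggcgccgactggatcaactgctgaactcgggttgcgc
PRPF4 (chr9:113275408-113275657, plus strand): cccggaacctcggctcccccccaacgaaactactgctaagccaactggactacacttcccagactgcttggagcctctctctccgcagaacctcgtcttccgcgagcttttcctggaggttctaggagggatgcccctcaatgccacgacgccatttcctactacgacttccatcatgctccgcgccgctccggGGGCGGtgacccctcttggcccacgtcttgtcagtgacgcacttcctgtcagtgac
HNRNPH3 (chr10:68331443-68331692, plus strand): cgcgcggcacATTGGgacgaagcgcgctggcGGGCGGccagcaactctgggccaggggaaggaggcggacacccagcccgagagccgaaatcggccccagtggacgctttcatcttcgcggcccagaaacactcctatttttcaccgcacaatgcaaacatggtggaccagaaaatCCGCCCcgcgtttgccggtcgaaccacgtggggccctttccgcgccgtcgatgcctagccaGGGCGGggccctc
SRSF6 (chr20:43457646-43457895, plus strand): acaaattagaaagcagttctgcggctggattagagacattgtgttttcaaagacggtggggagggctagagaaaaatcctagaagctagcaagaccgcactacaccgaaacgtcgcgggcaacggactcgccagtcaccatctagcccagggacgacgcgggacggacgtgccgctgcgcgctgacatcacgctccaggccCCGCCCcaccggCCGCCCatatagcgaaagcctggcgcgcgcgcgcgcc

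PRPF6 held 2 ETS sites and 2 Sp1 boxes, PRPF8 held 1 CCAAT box, and PRPF4 held 1 Sp1 box. HNRNPH3 held 3 Sp1 boxes and 1 CCAAT box, and SRSF6 held 2 Sp1 boxes. The Sp1 box was present in 12 of 15 promoters of genes that rose, 5 of 7 of genes that fell and 21 of 38 of genes not called, against 67.6% of the promoters of all genes tested and 42.3% of all 27305 promoters. The ETS site was present in 6 of 15, 1 of 7 and 8 of 38, against 15.7% of the promoters of genes tested and 8.82% of all. The CCAAT box was present in 4 of 15, 2 of 7 and 21 of 38, against 35.0% and 33.0%. The TATA box was found in 0 of 15, 0 of 7 and 5 of 38 (5.21% and 11.1%), and the NRF1 core in 1, 0 and 4 (4.71% and 2.81%). Sp1 letters stood in printed promoters of both directions, though not in that of PRPF8, and a match describes the letters only.

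Of the 3 PRPF proteins of U4 and U6, 2 rose. PRPF3, which holds the paired U4 and U6 RNAs together with PRPF4, stood at 66.0 and 69.2 CPM in control, 169 and 177 in KO-1 and 146 and 159 in KO-2. Every knockout library was more than 2-fold above both control libraries. It lies on chromosome 1 from 150321468 to 150353233. Its log2 fold change was 1.26 ± 0.06 (SE, adjusted p = 1.2e-06), on 1540 to 3251 reads per library. PRPF4 stood at 84.4 and 86.2 CPM in control, 105 and 106 in KO-1, and 110 and 97.9 in KO-2. It rose by 0.29 ± 0.06 (SE, adjusted p = 0.0054). PRPF31, which binds the U4 particle, had 50.7 and 55.2 CPM in control, 50.7 and 45.9 in KO-1 and 58.3 and 53.1 in KO-2, with a log2 fold change of -0.03 (adjusted p = 0.81). The knockout libraries of PRPF31 lay on both sides of the control libraries.

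PRPF8 and PRPF6 of the U5 particle and the kinase PRPF4B all rose. PRPF8, the scaffold of the catalytic centre, stood at 666 and 745 CPM in control, 1077 and 978 in KO-1 and 930 and 992 in KO-2. It lies on chromosome 17 from 1650629 to 1684867, and its rise was 0.49 ± 0.06 (SE, adjusted p = 0.00017). PRPF6, which bridges U5 to U4 and U6, stood at 120 and 121 CPM in control, 189 and 173 in KO-1, and 181 and 170 in KO-2. The 2 control libraries of PRPF6 were nearly equal, and all 4 knockout libraries lay well above them. PRPF6 lies on chromosome 20 from 63981132 to 64033100 and rose by 0.56 ± 0.06 (SE, adjusted p = 7.5e-05). PRPF4B, the kinase of this particle, rose from 200 and 204 CPM in control to 268 and 257 in KO-1 and 250 and 233 in KO-2 (log2 fold change 0.32, adjusted p = 0.0011).

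Among PRPF factors of the first and last steps, PRPF39 and PRPF18 rose. PRPF39, a U1-associated protein that acts when the donor site is first recognised, stood at 53.0 and 51.7 CPM in control, 76.0 and 82.0 in KO-1, and 69.5 and 68.0 in KO-2. It rose by 0.49 ± 0.06 (SE, adjusted p = 0.00039) for the mean of both guides. PRPF40B, another U1-associated factor, at 63 to 122 reads per library, stood at 0.33 (adjusted p = 0.15). PRPF18, needed for the second catalytic step, rested on 130 to 173 reads per library. Its level was 5.57 and 6.01 CPM in control, 8.44 and 9.41 in KO-1, and 11.2 and 8.48 in KO-2, a rise of 0.68 ± 0.16 (SE, adjusted p = 0.0082). In the GENCODE annotation used here exons of PRPF18 overlap those of AL157392.5 on the same strand and of RPL6P24 on the opposite strand. PRPF19, the ubiquitin ligase that stabilises the catalytic spliceosome, stood at -0.14 (adjusted p = 0.17), PRPF38A, of the complex before activation, at 0.14 (adjusted p = 0.078) and PRPF38B at 0.16 (adjusted p = 0.063).

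The share of all genes called was 29.2% under quantile normalization, 27.5% with the replicate block and 30.3% with library medians set equal. With no mean-variance trend it was 16.0%, and for left-out libraries it is given above. The PRPF count of 8 higher and 0 lower was the same under quantile normalization and with the replicate block, and it was 10 and 0 with library medians set equal. Without control replicate 1 or 2 it was 5 and 0 each. PRPF18 then had an adjusted p of 0.11 and 0.060, and PRPF4 of 0.089 and 0.059. Without KO-2 replicate 1 the count was 10 higher and 1 lower, the latter being PRPF19, and with no mean-variance trend it was 6 and 0.

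**Figure D3:**
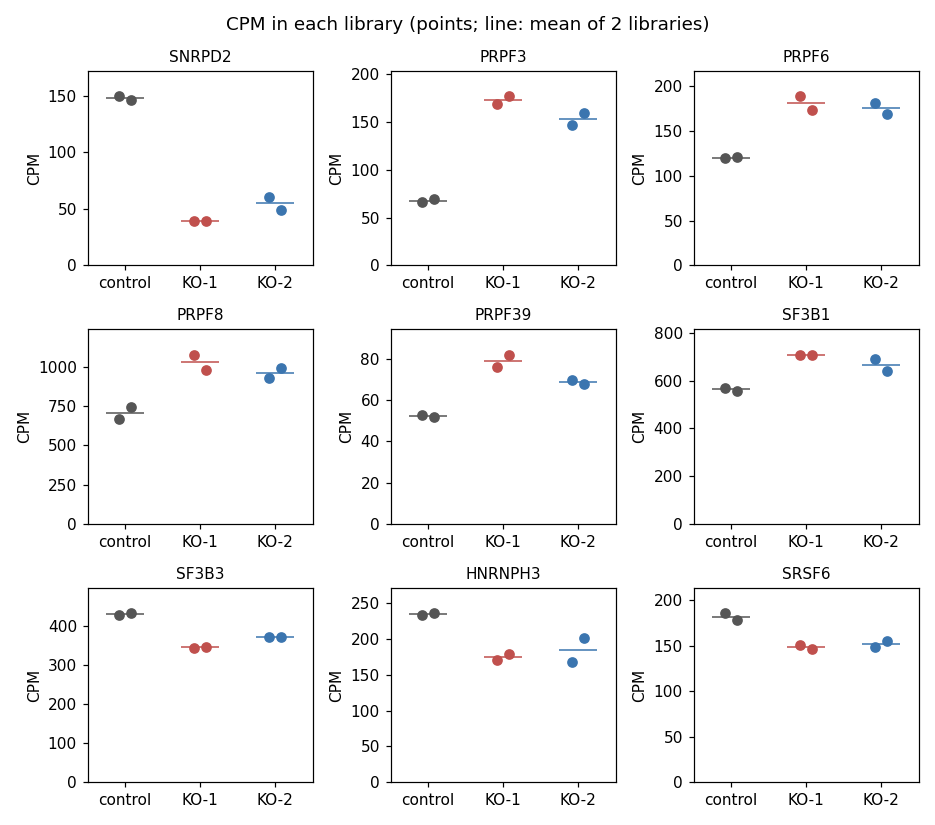
CPM (y axis, from 0) in each of the 2 libraries of control, KO-1 and KO-2 for SNRPD2 and 8 splicing factors, with the group mean as a line. PRPF3, PRPF6, PRPF8, PRPF39 and SF3B1 lie higher in all 4 knockout libraries, and SNRPD2, SF3B3, HNRNPH3 and SRSF6 lie lower in all 4.

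The SF3A and SF3B proteins are subunits of the U2 snRNP, which binds the branch point inside the intron. Of the 9 subunits measured here 4 rose and 2 fell. That is 66.7% called in SF3A and in SF3B, where 29.6% of all genes tested were called. SF3B1, the large subunit that clamps the branch point and is often mutated in cancer, stood at 571 and 558 CPM in control, 709 and 709 in KO-1, and 691 and 639 in KO-2. It rose by 0.28 ± 0.04 (SE, adjusted p = 0.00097) and lies on chromosome 2 from 197389784 to 197435093. SF3B3, its scaffold partner, moved the opposite way: 428 and 432 CPM in control, 343 and 346 in KO-1, and 371 and 372 in KO-2. Its log2 fold change was -0.27 ± 0.04 (SE, adjusted p = 0.00098; chromosome 16 from 70523816 to 70577668). Within each group the replicates of SF3B3 differed by less than the groups did. SF3B4, which contacts RNA upstream of the branch point, rose by 0.22 (adjusted p = 0.014), and SF3B6, which touches the branch point itself, by 0.25 (adjusted p = 0.038). SF3B2 stood at 0.08 (adjusted p = 0.19) and SF3B5 at -0.08 (adjusted p = 0.37).

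Among the SF3A subunits, which join U2 to its mature form, SF3A2 had 113 and 111 CPM in control, 145 and 151 in KO-1, and 124 and 148 in KO-2. It rose by 0.34 ± 0.07 (SE, adjusted p = 0.0050). SF3A3 had 150 and 149 CPM in control, 110 and 117 in KO-1, and 146 and 135 in KO-2. It fell by 0.24 ± 0.06 (SE, adjusted p = 0.0083), with the KO-1 libraries the lowest. SF3A1 stood at -0.14 (adjusted p = 0.13). Without control replicates 1 and 2, SF3A2 (adjusted p = 0.056 and 0.066), SF3A3 (0.11 and 0.093), SF3B4 (0.15 and 0.11) and SF3B6 (0.24 and 0.17) lost their calls. SF3B4 also lost its call without KO-1 replicates 1 and 2 (0.056 and 0.060) and SF3B6 without KO-1 replicate 2 (0.14).

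The U2AF proteins bind the end of the intron ahead of U2. Of the 3 genes 0 were called at an adjusted p below 0.05 in limma, where 29.6% of all genes tested were. At an unadjusted p below 0.05 in limma there was 1, where 36 of the 71 genes passed, a count not made over all genes. U2AF2, the subunit that binds the pyrimidine tract, was nearly level, with 347 and 347 CPM in control, 359 and 353 in KO-1 and 360 and 365 in KO-2 (log2 fold change 0.05, adjusted p = 0.39). U2AF1 rested on 17 to 58 reads per library. A near-identical copy, listed by RefSeq as LOC102724594 with the synonym U2AF1L5, can share its reads, so its level is uncertain. U2AF1 had a log2 fold change of 0.28 with a 95% interval of -0.39 to 0.94. U2AF1L4, a shorter relative at 30 to 93 reads, stood at 0.61 (adjusted p = 0.12), with KO-2 replicate 1 at 2.30 CPM beside KO-2 replicate 2 at 4.61. The 95% intervals of both genes reached beyond 1.5-fold, beside few reads and KO-2 replicates that lay far apart.

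LSM proteins form a ring of their own, which in the nucleus binds the end of U6 RNA and in the cytoplasm starts mRNA decay. Of 13 genes 2 rose and 0 fell, which is 15.4% called and below the 29.6% of all genes tested. LSM3, a subunit of both rings, had 82.6 and 82.7 CPM in control, 94.7 and 98.6 in KO-1, and 133 and 94.0 in KO-2. KO-2 replicate 1 stood well above the other knockout libraries. The rise was 0.33 ± 0.11 (SE, adjusted p = 0.040). LSM4, also in both rings, had 205 and 207 CPM in control, 218 and 211 in KO-1, and 254 and 234 in KO-2, and it rose by 0.15 ± 0.05 (SE, adjusted p = 0.043). Both calls were lost without control replicates 1 and 2 (LSM3 adjusted p = 0.19 and 0.18, LSM4 0.27 and 0.22) and without KO-1 replicates 1 and 2 (LSM3 0.10 and 0.13, LSM4 0.15 and 0.098).

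The remaining LSM genes lay between -0.16 for LSM7 and 0.15 for LSM1, and none of them was called for the mean of both guides. LSM8, the subunit found only in the U6 ring, stood at 0.07 (adjusted p = 0.47). LSM1, found only in the decay ring, stood at 27.8 CPM in KO-2 replicate 1 and between 17.5 and 19.8 CPM in the other libraries. LSM5 likewise had 84.7 CPM in KO-2 replicate 1 and 60.9 to 65.9 elsewhere. LSM7 had 40.9 CPM there and 52.0 to 60.5 elsewhere. In these 3 genes the library that stood apart was the shallowest one, and the part of depth in this was not tested. Of the relatives outside the rings, LSM10, a component of the U7 particle that processes histone mRNA, stood at -0.30 in KO-1 (log2 fold change, adjusted p = 0.0497) and at 0.03 in KO-2. That call was lost in 10 of 16 alternative settings, among them both other scalings and each control or KO-1 library left out.

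SRSF proteins carry domains rich in arginine and serine and promote the use of nearby splice sites, and their own transcripts are known to be held in check by poison exons. SRSF6 had 186 and 178 CPM in control, 151 and 147 in KO-1, and 148 and 156 in KO-2. All 4 knockout libraries lay below both control libraries, and SRSF6 fell by 0.28 ± 0.05 (SE, adjusted p = 0.0028; chromosome 20 from 43457896 to 43464243). SRSF2 had 214 and 218 CPM in control, 170 and 176 in KO-1, and 200 and 180 in KO-2, and it fell by 0.25 ± 0.05 (SE, adjusted p = 0.0056). SRSF1, the founding member, fell by 0.17 (adjusted p = 0.026) and SRSF7 by 0.16 (adjusted p = 0.045).

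SRSF4 and SRSF12 moved the other way. SRSF4 had 161 and 159 CPM in control, 197 and 198 in KO-1, and 193 and 189 in KO-2, a rise of 0.28 ± 0.05 (SE, adjusted p = 0.0016). The replicates of SRSF4 were close in every group. SRSF12, which acts as a repressor of splicing, rested on 102 to 179 reads and rose by 0.44 ± 0.15 (SE, adjusted p = 0.047). Its log2 CPM was 2.77 and 2.57 in control, 3.45 and 3.19 in KO-1, and 2.99 and 2.83 in KO-2, with KO-1 the higher. SRSF3 stood at -0.05, SRSF5 at 0.12, SRSF8 at -0.05, SRSF9 at 0.10, SRSF10 at -0.06 and SRSF11 at 0.10, and none of these 6 was called for the mean of both guides.

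The number of SRSF calls in each direction depended on scaling, with no call changing sign: 2 rose and 4 fell as deposited, 4 rose and 2 fell with library medians set equal, and 2 rose and 5 fell under quantile normalization. With library medians set equal SRSF1 and SRSF7 lost their calls and SRSF5 and SRSF11 gained one. SRSF6 lost its call without control replicate 1 (adjusted p = 0.080), SRSF2 without control replicates 1 and 2 (0.067 and 0.088), SRSF1 without them (0.31 and 0.11), SRSF7 without them (0.36 and 0.15) and SRSF12 without them (0.14 and 0.35). SRSF1 (0.089 and 0.084), SRSF7 (0.17 and 0.055) and SRSF12 (0.14 and 0.063) also lost it without KO-1 replicates 1 and 2.

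HNRNP proteins coat new transcripts and compete with SRSF proteins for splice sites. HNRNPH3, a small relative of the G-run binding H proteins, had the lowest fold change of all 71 genes. It had 233 and 235.5 CPM in control, 171 and 179 in KO-1, and 168 and 201 in KO-2, and it fell by 0.39 ± 0.07 (SE, adjusted p = 0.0018; chromosome 10 from 68331693 to 68343196). In the GENCODE annotation used here its exons overlap those of RUFY2 on the opposite strand, and the sources used here do not give the strand setting of the counting. HNRNPH1, its larger relative, had 552 and 559 CPM in control, 474 and 491 in KO-1, and 438 and 523 in KO-2, and it fell by 0.21 ± 0.06 (SE, adjusted p = 0.027). HNRNPH2, on the X chromosome from 101408222 to 101414133, rose by 0.17 (adjusted p = 0.028), so the 3 H genes did not share a direction. Its exons overlap the annotated readthrough gene RPL36A-HNRNPH2 on the same strand.

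HNRNPU, a scaffold of chromatin and RNA, had 1039 and 1062 CPM in control, 920 and 944 in KO-1, and 924 and 988 in KO-2, and it fell by 0.15 ± 0.04 (SE, adjusted p = 0.017). Its relative HNRNPUL1 rose by 0.15 (adjusted p = 0.025), and HNRNPUL2 stood at -0.18 (adjusted p = 0.085). HNRNPA3, of the A and B group, had 608 and 640 CPM in control, 703 and 705 in KO-1, and 700 and 718 in KO-2, a rise of 0.18 ± 0.04 (SE, adjusted p = 0.0076). GENCODE names 16 pseudogenes of HNRNPA3 and 74 of HNRNPA1, so reads of these genes could be split among copies. HNRNPA1 stood at -0.02, HNRNPA2B1 at 0.03, HNRNPK at 0.01 and HNRNPC at -0.07, and none of these 4 abundant genes was called.

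The HNRNP call counts also depended on scaling, with no call changing sign: 3 higher and 3 lower as deposited, 4 and 1 with library medians set equal, where HNRNPH1 and HNRNPU lost their calls, and 1 and 8 under quantile normalization, where HNRNPA1, HNRNPC, HNRNPDL, HNRNPF and HNRNPM were called lower and HNRNPA3 and HNRNPUL1 lost their calls. HNRNPH3 kept its call with each library left out. HNRNPA3 lost it without control replicate 1 (adjusted p = 0.17), and HNRNPH1 (0.15 and 0.17), HNRNPH2 (0.27 and 0.15), HNRNPU (0.11 and 0.18) and HNRNPUL1 (0.24 and 0.14) without control replicates 1 and 2. The last 4 also lost it without KO-1 replicates 1 and 2: HNRNPH1 (0.11 and 0.078), HNRNPH2 (0.097 and 0.089), HNRNPU (0.083 and 0.059) and HNRNPUL1 (0.083 and 0.097). Of the 71 genes, 31 have exons that overlap another annotated gene on either strand.

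Other genes of the pathway were taken from lists drawn up by function. Of 8 Sm ring genes 4 rose and 1, SNRPD2, fell. SNRPF rose by 0.32, SNRPE by 0.26, SNRPG by 0.24 and SNRPD1 by 0.20. Of 12 partners of the PRPF proteins in U5 and in the joined particle, 6 rose and 0 fell, with a median of 0.16. DDX23, the helicase that opens the donor site for U6, rose by 0.59 ± 0.05 (SE, adjusted p = 2.8e-05), and SNRNP200, which unwinds U4 from U6, by 0.50 ± 0.04 (SE, adjusted p = 2.8e-05). SNRNP27 rose by 0.57 and SART1 by 0.57, while EFTUD2, the GTPase partner of PRPF8, stood at 0.04 and did not pass the test. Without KO-2 replicate 1 this list gave 6 higher and 1 lower, and without control replicates 1 and 2 it gave 4 and 0 each.

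For 17 partners in U1 and U2 the counts were 8 higher and 1 lower, with DDX46 at 0.585 and SMNDC1 at 0.60, and SNRPA, of U1, fell by 0.46. For 21 factors of the catalytic steps they were 8 and 0, led by SYF2 at 0.64, with SLU7 at 0.33. Without control replicates 1 and 2 the genes called higher numbered 1 and 0 in the Sm ring, 4 and 3 in U1 and U2, and 2 and 1 in the catalytic steps. Of 11 SR-related proteins 5 rose and 1 fell, with SON at 0.48 and PNN at 0.34. Among 8 SR protein kinases and import factors 2 rose and 1 fell: SRPK1, which phosphorylates SRSF proteins, fell by 0.42, and CLK1 rose by 0.26. The lists of regulators were mixed. Of 21 other splicing regulators 7 rose and 7 fell, with MBNL1 at 0.58 and RBM39 at 0.53. Nonsense-mediated decay factors had 5 of 15 higher and 4 lower, with SMG6 at -0.31. snRNP assembly had 2 of 16 higher, among them GEMIN5 at 0.38, and 2 lower, among them WDR77 at -0.43. The minor spliceosome had 1 of 8 higher, ZRSR2 at 0.30, and 1 lower, PDCD7 at -0.21. The share called over all genes tested was 29.6%, as above, with a median of -0.01.

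Each guide was then set against the same 2 control libraries, so both sets of values share their controls. With KO-1, 15 of 71 genes rose and 9 fell, where 29.7% of all genes were called (14.6% higher and 15.1% lower). With KO-2, 17 rose and 5 fell, where 16.9% of all genes were called (8.73% higher and 8.19% lower). PRPF3 rose by 1.35 ± 0.07 (log2; SE, adjusted p = 1.4e-06) in KO-1 and by 1.17 ± 0.07 (SE, adjusted p = 3.3e-05) in KO-2. PRPF6 stood at 0.59 and 0.54, PRPF8 at 0.54 and 0.45, and SF3B1 at 0.33 and 0.24. HNRNPH3 stood at -0.42 and -0.35, and SRSF6 at -0.29 and -0.26. PRPF3 and these 5 passed the test with either guide. Of the 71 genes, 13 were called higher and 3 lower with both guides, a count not made over all genes. LSM4 (KO-1 adjusted p = 0.50) and SRSF12 (KO-2 adjusted p = 0.38) were called with 1 guide only. HNRNPH1 and SF3B6, called for the mean, were called with neither guide alone. SF3A3 stood at -0.39 (adjusted p = 0.0013) in KO-1 and -0.09 (adjusted p = 0.35) in KO-2. With library medians set equal KO-1 gave 22 higher and 5 lower (all genes 2535 and 1653), and KO-2 gave 19 and 3 (1575 and 866). Under quantile normalization KO-1 gave 13 higher and 17 lower (all genes 2023 and 2089), while KO-2 gave 10 and 8 (1213 and 1130). With 1 library left out, the count for each guide moved in the same direction as the count over all genes. Both fell without a control or KO-1 library and rose without a KO-2 library.

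**Figure D4:**
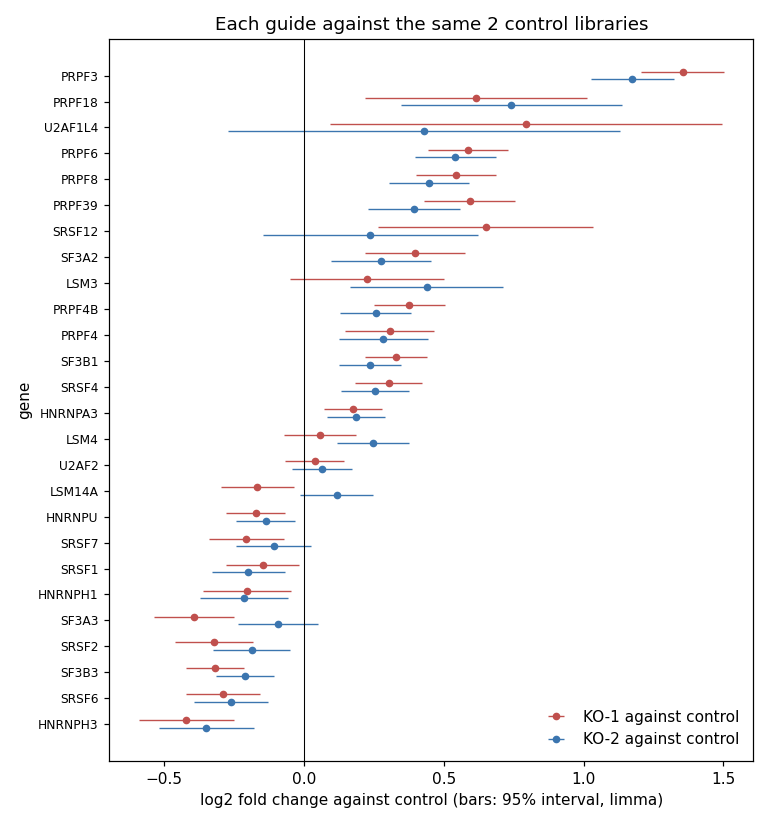
Log2 fold change of KO-1 (red) and KO-2 (blue) against the same control libraries on the x axis, with 95% intervals from limma, for the 26 genes that the naming rule chose, 1 per row. PRPF3 lies farthest right at 1.35 and 1.17, HNRNPH3 farthest left at -0.42 and -0.35, and LSM14A has its 2 points on opposite sides of 0.

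The guides were compared with each other directly as well. Of 71 genes 1 was called, LSM14A, where 1.14% of all genes were called (0.334% higher and 0.806% lower). LSM14A, which binds mRNA in cytoplasmic granules and is no subunit of the rings, had 251 and 248 CPM in control, 221 and 223 in KO-1, and 284 and 258 in KO-2. Its log2 fold change of KO-2 against KO-1 was 0.28 ± 0.06 (SE, adjusted p = 0.049), and both KO-2 libraries lay above both KO-1 libraries. Its adjusted p was 0.14 without either control library and 0.42 without either KO-1 library. In 65 of 71 genes the 95% interval of the difference lay within 1.5-fold either way. More genes were called between the guides without either KO-2 replicate, among the 71 and among all genes. In both fits the remaining KO-2 library is assumed to vary like the control and KO-1 libraries. Fewer were called, in both sets, without any 1 control or KO-1 library.

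The authors' deposited table gives its own comparisons of the same groups. At a false discovery rate below 0.05 it called 26 of the 71 genes for KO-1 (29.0% of all genes in that table), 22 for KO-2 (16.7%) and 3 for KO-2 against KO-1 (1.49%). It shared 24 calls with limma for KO-1, 21 for KO-2 and 1 between the guides, all with the same sign. In the authors' deposited table PRPF3 had a log2 fold change of 1.35 (false discovery rate 1.1e-07) for KO-1 and 1.18 (3.8e-06) for KO-2.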

How the data were processed

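RNA of 6 CAL51 libraries was measured by bulk RNA sequencing. The authors named fastp, STAR 2.7, Subread 2.0 with featureCounts, edgeR and the build hg38, per the submitters' processing notes, which also cover other data of the series. No source used here gives the annotation, strand setting or filters. The authors deposited log2 CPM values for 14788 genes and, in a second table, their log2 fold changes, p-values and false discovery rates.

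The values were used as deposited. Their shared minimum of -3.29 stands for a prior of 0.102 CPM, and subtracting it gave whole reads for 100% of the values (tolerance 0.01 reads), so 1 read was worth 0.0383 to 0.0767 CPM. CPM values in the report are without the prior. Fold changes keep the prior, so changes of low genes are understated. A gene was tested if its log2 CPM reached 0 in at least 2 libraries, which kept 13765 genes, among them all 71 described here. Group means of the 3 groups were modelled together in limma 3.58.1 under R 4.3.3, with a mean-variance trend, 3 residual and 8.02 prior degrees of freedom, and Benjamini-Hochberg adjustment over all genes tested. Every adjusted p comes from it unless the authors' table is named. The script was tested on simulated data. Genes were matched to RefSeq by symbol (70) or older symbol (1).

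The members and lists were chosen with earlier results of these data known. Named were called genes whose knockout libraries did not overlap the controls: the 10 highest and all 9 called lower. Also named were up to 4 in each direction between guides, the 2 with the smallest p of each family and of each list, and SNRPD2. The other genes named were chosen after their values were seen. Alternatives covered filters, pseudocount, scaling, variance model, depth, replicate block, left-out libraries and samples in the fit. Single results for 2 of the genes counted are not reported here.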

Additional observations from a re-analysis of the deposited data

Results flagged for a closer look

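Among the 71 genes and SNRPD2, the direct test of KO-2 against KO-1 called LSM14A and SNRPD2. LSM14A differed by a log2 fold change of 0.28 (limma adjusted p = 0.049), and the adjusted p over its alternatives ran from 5.7e-05 to 0.42. SNRPD2 differed by 0.47 (limma adjusted p = 0.040), being lower in KO-1 than in KO-2, and over its alternatives its adjusted p ran from 7.9e-06 to 0.42. Among the settings that lost the SNRPD2 call was the fit with no mean-variance trend, where 0 of all genes were called higher in KO-2. The call was also lost without either control library and without either KO-1 library.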

How the results depend on the processing

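With no mean-variance trend 10 of the 71 genes were called for both guides (28 as reported) and 11 for KO-1 (24). For KO-2 the count was 1 (22) and between the guides 0 (1). Of all genes 16.0%, 17.0%, 1.18% and 0.00726% were then called, against 29.6%, 29.7%, 16.9% and 1.14% as reported. With only the libraries of the comparison in the fit, the counts of the 71 were 45 for KO-1, 11 for KO-2 and 0 between the guides. The shares of all genes were 45.5%, 9.96% and 0.349%. The single call between the guides was also lost, to 0, with no filter, a mean log2 CPM of at least 2, library medians set equal, thinned reads and the replicate block. With the 5 LSM genes outside the rings left out it was 0 by construction, since LSM14A is one of them. Leaving out 1 library in turn gave 9 to 41 for both guides, 12 to 45 for KO-1, 3 to 38 for KO-2 and 0 to 29 between the guides. All other alternatives kept the counts within 1.5 times. With the replicate block the counts were 25, 23, 19 and 0. Same-numbered libraries did not deviate together (correlations of -0.05, 0.04 and -0.04), so the numbers were not taken to pair them. No called gene among those named changed sign. Having 2 libraries a group and few reads for U2AF1, U2AF1L4, PRPF40B, SRSF12 and PRPF18 limits precision.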
